A study of Mus musculus with 12 samples.

Results

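The comparison described here is that of astrocyte-enriched cortical cultures carrying ACREB with cultures carrying a control virus, both after vasoactive intestinal peptide (VIP). It asked which transcripts depend on the transcription factor CREB once the cultures have been stimulated. It uses 6 of the 12 libraries of the study, 3 of the library group labelled ACREB with VIP and 3 of control virus with VIP, paired by the replicate number in the labels. All genes that passed an expression filter were included, which left 16761 of the 55573 genes in the count table. The cultures came from forebrains of C57BL6/J mouse pups at postnatal days 0 to 2, and were shaken and replated at day 7 in vitro to remove other glia. Every culture received a lentivirus for 5 days, either pCIG3, in which a CMV promoter drives GFP, or pCIG3-ACREB. The 6 libraries compared here then received 0.5 µM VIP for 30 min and 90 min of recovery before lysis, and the other 6 received PBS on the same schedule. The CMV promoter is not specific to astrocytes, so any cell type in the dish can carry the inhibitor. The labels do not state whether the numbered replicates came from separate cultures or litters, so the p-values reflect how far these samples varied, and part of that may be technical.

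VIP acts on receptors that couple to the stimulatory G protein, which raises cyclic AMP (cAMP) and activates protein kinase A. The kinase phosphorylates CREB, which sits as a dimer on cAMP response elements in promoters and recruits coactivators. ACREB is an engineered dominant-negative protein that keeps the leucine zipper of CREB and carries an acidic stretch in place of the part that contacts DNA, so that a CREB molecule paired with it cannot bind its element. In astrocytes the cAMP pathway is best known for its control of glycogen stores and of early transcription factor genes such as the NR4A nuclear receptors.

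The 6 libraries held 18899579 to 20529238 counts with control virus and 17776803 to 19021486 with ACREB (exact two-sided permutation p = 0.2, where 3 against 3 libraries allow no less than 0.1). Of 20 listed astrocyte markers 19 were tested, with summed levels of 15322 to 17431 CPM (read counts scaled to a common library total, with library sizes adjusted by the TMM method) with control virus and 15719 to 19706 CPM with ACREB. Gfap, the astrocyte intermediate filament gene, measured 1206 to 1548 and 1194 to 1440 CPM. The cultures also held transcripts of other cell types. Over the 6 libraries the summed markers ranged from 3331 to 4942 CPM for fibroblasts and mural cells, 1852 to 5008 CPM for microglia, 1183 to 1402 CPM for the oligodendrocyte lineage, 456 to 565 CPM for neurons, 406 to 594 CPM for ependymal cells and 32.4 to 59.2 CPM for endothelium. Control PBS library 2 stood apart on the first principal component, at 81.2, and ACREB PBS library 2 followed at 34.6. Neither is in the VIP comparison, but both enter the estimate of the spread, because 1 model was fitted to all 12 libraries.

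With VIP in the medium, cultures with ACREB had less of the NR4A receptor transcripts Nr4a1 and Nr4a2, of the chromatin gene Mbd6 and of the coactivator gene Helz2, and more of the antigen-presentation gene Cd74, the peptide gene Npy and the kinase gene Glyctk. In edgeR's quasi-likelihood test, with the replicate number as a block and p-values adjusted by the Benjamini-Hochberg method, 25 genes rose and 36 fell at an adjusted p under 0.05. That is 0.364% of the genes tested, with 0.149% higher and 0.215% lower. A log2 change of 1 or more was seen for 12 of the rises and 11 of the falls. The libraries of both groups did not overlap for 58 of the 61 genes, against 14.0% of all genes tested (6.97% higher and 7.06% lower). All 3 numbered pairs showed the direction of the call for 61 of 61. The calls were chosen on these same libraries, so both counts describe them and give no further support. The exceptions to the separation were Ly86, Cst7 and Sod3, whose levels differed more between numbers than between viruses. The calls included 53 protein-coding genes. Before adjustment, 1837 genes (11.0%) had a p under 0.05, of which 1020 were higher (6.09%) and 817 lower (4.87%).

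These counts rest on single libraries and on the block. Without the block 3 genes rose and 6 fell. Without ACREB VIP library 1, 2 or 3 the rises numbered 1 each and the falls 1, 0 and 0. Without control VIP library 1, 2 or 3 there were 6, 3 and 3 rises and 6, 8 and 4 falls. Without ACREB PBS library 1, 2 or 3 the rises were 9, 10 and 11 and the falls 14, 14 and 15. Without control PBS library 1 or 3 the rises were 16 and 14 and the falls 34 and 29, while without control PBS library 2 there were 243 and 313. The 6 VIP libraries fitted alone with the block gave 826 rises and 937 falls, which included all 25 and all 36 of the calls above.

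**Figure D1:**
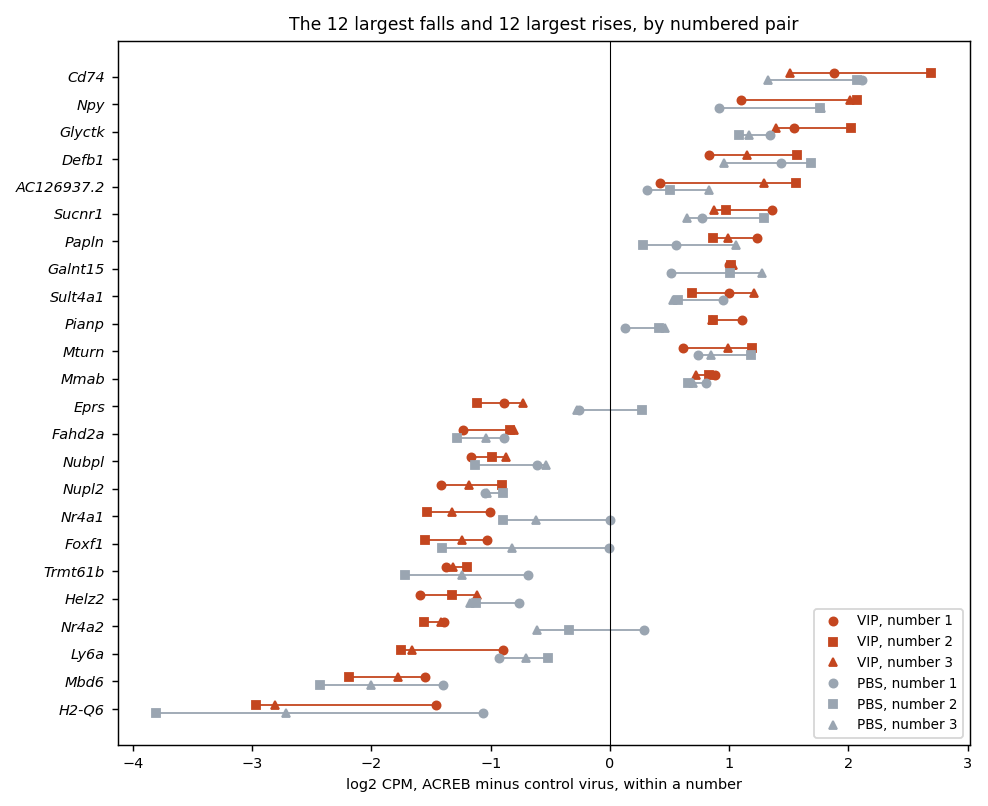
Difference in log2 CPM between ACREB and control virus within each replicate number (x axis; circle, square and triangle for numbers 1, 2 and 3) for the 12 largest named falls and the 12 largest named rises, with VIP in red and with PBS in grey; lines join the numbers of 1 gene. All 3 VIP points of each gene lie on 1 side of 0. The PBS points of Nr4a2, Eprs and Nr4a1 lie on both sides, for Nr4a1 only through number 1 at 0.0013.

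Nr4a2 and Nr4a1 encode orphan nuclear receptors that are classical early targets of cAMP signalling. Nr4a2 (ENSMUSG00000026826, chromosome 2, 57106830 to 57124003, GRCm38) measured 58.2, 62.0 and 54.1 CPM in control VIP libraries 1 to 3 and 22.1, 21 and 20.2 CPM in ACREB VIP libraries 1 to 3. The groups were far apart, and each of the 3 ACREB libraries lay within 2 CPM of the others. The level was 2.76-fold lower with ACREB, from 58.1 ± 3.95 to 21.1 ± 0.954 CPM (SD, n = 3), at a log2 fold change of -1.46 (SE 0.17, Benjamini-Hochberg adjusted p = 0.0067, edgeR). In PBS, Nr4a2 measured 4.10 to 6.69 CPM with control virus and 3.33 to 5.02 CPM with ACREB, ranges that overlap. ACREB with VIP therefore left Nr4a2 above every PBS library and below every control VIP library.

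Nr4a1 (ENSMUSG00000023034, chromosome 15, 101254269 to 101274795) measured 65.0, 146.7 and 130.5 CPM with control virus and VIP, and 32.3, 50.7 and 52.1 CPM with ACREB and VIP. Library 1 was the lowest in both groups, and the groups did not overlap. The log2 fold change was -1.29 (SE 0.19, Benjamini-Hochberg adjusted p = 0.025, edgeR). Nr4a3, the remaining member of the family, measured 519.1, 470.2 and 652.1 CPM with control virus and 268.6, 197.0 and 305.6 CPM with ACREB. Its groups did not overlap either, but its log2 fold change of -1.10 did not pass (SE 0.33, adjusted p = 0.202, edgeR).

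The list of cAMP/CREB target genes, which includes Nr4a1 and Nr4a2, had a median log2 fold change of -0.35 over its 35 tested members. The median over all genes tested was -0.00084. Of the 35, 0 rose and 2 fell (Nr4a1 and Nr4a2). At an unadjusted p under 0.05, 15 were lower and 0 higher, against 4.87% lower and 6.09% higher among all genes tested. With no overlap between groups 13 were lower, against 7.06% of all genes tested. With PBS the list's median was -0.02, and 0 rose and 0 fell. Like the other lists, this list was chosen with earlier results of these data known. Those results drew on the control VIP libraries compared here, so the counts describe the list and give no independent support. Ppp1r3c, which brings protein phosphatase 1 to glycogen, measured 143.9, 98.6 and 106.1 CPM with control virus and 84.1, 57.7 and 61.1 CPM with ACREB. Its 3 pairs differed by -0.77, -0.77 and -0.79 on the log2 scale, and its log2 fold change of -0.78 lay just outside the threshold (adjusted p = 0.060, edgeR). The cyclic nucleotide phosphodiesterase gene Pde10a was similarly placed, at 160.3, 122.4 and 119.6 CPM with control virus and 94.8, 71.2 and 76.9 CPM with ACREB (log2 -0.73, adjusted p = 0.055, edgeR). Earlier results of these data had reported Ppp1r3c and Pde10a as raised by VIP in control virus, as they had Nr4a2, Txndc11 and Trmt61b. That choice used the control VIP libraries compared here, so the lower values of Ppp1r3c and Pde10a with ACREB are given as description only. Dio2, the deiodinase that activates thyroid hormone, ranged from 34.2 to 105.1 CPM with control virus and from 19.5 to 43.5 CPM with ACREB, so its groups overlapped (log2 -1.16, adjusted p = 0.124, edgeR). It overlaps Gm26512 on the opposite strand, and its counts are uncertain, because the strand setting of the counting is not given in the sources used here. Pde4d (-0.65), the coactivator gene Ppargc1a (-0.71), the secretory protein gene Vgf (-0.59), the clock gene Per1 (-0.52) and the kinase gene Sik1 (-0.72) had log2 values below 0 and did not pass, at adjusted p = 0.165, 0.146, 0.198, 0.160 and 0.281 by edgeR.

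Of the 61 calls, 12 had an unadjusted p of 0.05 or more between viruses in PBS, 3 of them rises and 9 falls. The rises were Pianp, Gprin2 and D730003I15Rik, with log2 fold changes of 0.98, 0.63 and 1.10 with VIP and 0.35, 0.22 and 0.17 with PBS. The falls were Nr4a2, Txndc11, Eprs, Syt4, Nap1l5, Rnf217, Usp2, Rfx4 and Hmgb3. Txndc11, a thioredoxin domain protein gene on chromosome 16 (11074911 to 11134650), measured 105.5, 82.2 and 90.6 CPM with control virus and VIP, and 52.4, 49.1 and 49.2 CPM with ACREB and VIP. It overlaps Snn on the opposite strand and is uncertain in the same way. The log2 fold change was -0.88 with VIP (SE 0.12, Benjamini-Hochberg adjusted p = 0.019, edgeR) and -0.10 with PBS (adjusted p = 0.765).

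Eprs, the glutamyl-prolyl-tRNA synthetase gene, measured 717.4, 481.3 and 460.3 CPM with control virus and VIP, and 387.0, 222.3 and 277.4 CPM with ACREB under VIP. The ACREB libraries were all below the lowest control library, and the log2 fold change was -0.93 with VIP (adjusted p = 0.049, edgeR) and -0.11 with PBS. Syt4, a synaptotagmin of vesicle traffic that overlaps Gm26658 on the opposite strand, measured 19.5, 20.2 and 14.2 CPM with control virus and 11.2, 8.73 and 8.74 CPM with ACREB. Rfx4, a transcription factor gene of brain development, measured 262.1, 176.3 and 244.0 CPM against 168.7, 108.3 and 167.6 CPM, again with no overlap. The ubiquitin ligase gene Rnf217 had log2 fold changes of -0.72 with VIP and -0.11 with PBS. The deubiquitinase gene Usp2, which overlaps Gm39325 and Gm49380, had -0.72 and -0.21. The nucleosome assembly family gene Nap1l5 had -0.82 and -0.11, and the HMG-box gene Hmgb3 had -0.50 and -0.11. All 4 passed with VIP, at adjusted p of 0.026, 0.031, 0.031 and 0.045 by edgeR.

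The difference between the ACREB effects in VIP and in PBS was tested gene by gene as an interaction. No gene passed, with 0 higher and 0 lower by edgeR (smallest adjusted p = 0.935), and DESeq2 and limma-voom also called 0. Before adjustment 461 genes (2.75%) had a p under 0.05. Among the 61 VIP calls 15 were in that set, and the interaction of Nr4a2 was -1.22 on the log2 scale (unadjusted p = 0.00070, adjusted p = 0.935, edgeR). The interaction contains the VIP difference by which the 61 were chosen, so these unadjusted values support nothing. None of the calls is therefore shown to be particular to VIP.

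The same genes can be read beside the VIP effect in control virus, which shares the control VIP libraries with the comparison above, so that its values are given side by side and support nothing. Nr4a2 had log2 fold changes of VIP over PBS of 3.54 with control virus and 2.32 with ACREB. The corresponding values were 1.85 and 1.06 for Txndc11, 1.84 and 1.03 for Eprs, 1.33 and 0.76 for Rfx4, and 2.17 and 1.32 for Pde10a. For Mbd6 they were -0.08 and 0.07, and for Lrrc57 0.07 and 0.11.

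**Figure D2:**
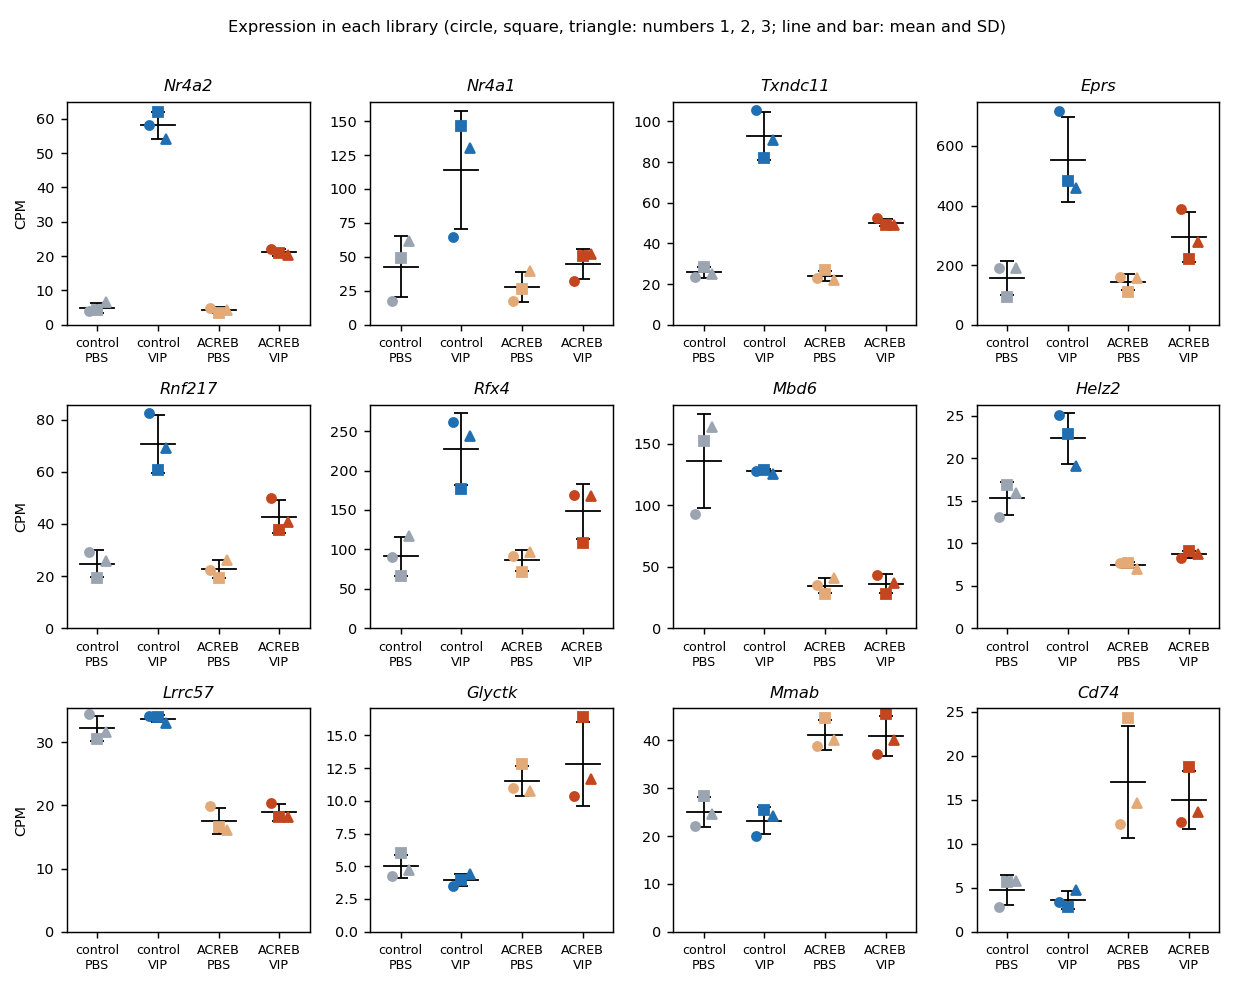
Expression in CPM (y axis, from 0) of 12 genes in each of the 12 libraries, by virus and treatment, with a line at the group mean and bars of 1 SD (n = 3). Nr4a2, Txndc11, Eprs, Rnf217 and Rfx4 are separated by virus with VIP and overlap between viruses with PBS, whereas Mbd6, Helz2, Lrrc57, Glyctk, Mmab and Cd74 are separated in both treatments.

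Most VIP calls were not confined to VIP. The PBS comparison of the same viruses shares no library with the VIP comparison and called 14 rises and 23 falls (0.221% of genes, 0.0835% higher and 0.137% lower). Both comparisons came from 1 fit, with the same block and the same estimate of spread for each gene. Passing in both is therefore not independent replication. In all, 23 genes passed in both treatments, 8 higher and 15 lower, each in 1 direction, which is 37.7% of the VIP calls and 62.2% of the PBS calls. The libraries of both viruses also separated with PBS, in the same direction, for 41 of the 61, against 8.78% of all genes in either direction. All 61 VIP calls had the same sign with PBS, against 58.9% of all genes tested. Of them 49 had the same sign and an unadjusted p under 0.05 with PBS, where 10.8% of all genes had such a p in either direction. The median log2 fold change of the 36 falls was -0.85 with VIP and -0.72 with PBS, and that of the 25 rises was 0.98 and 0.69.

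**Figure D3:**
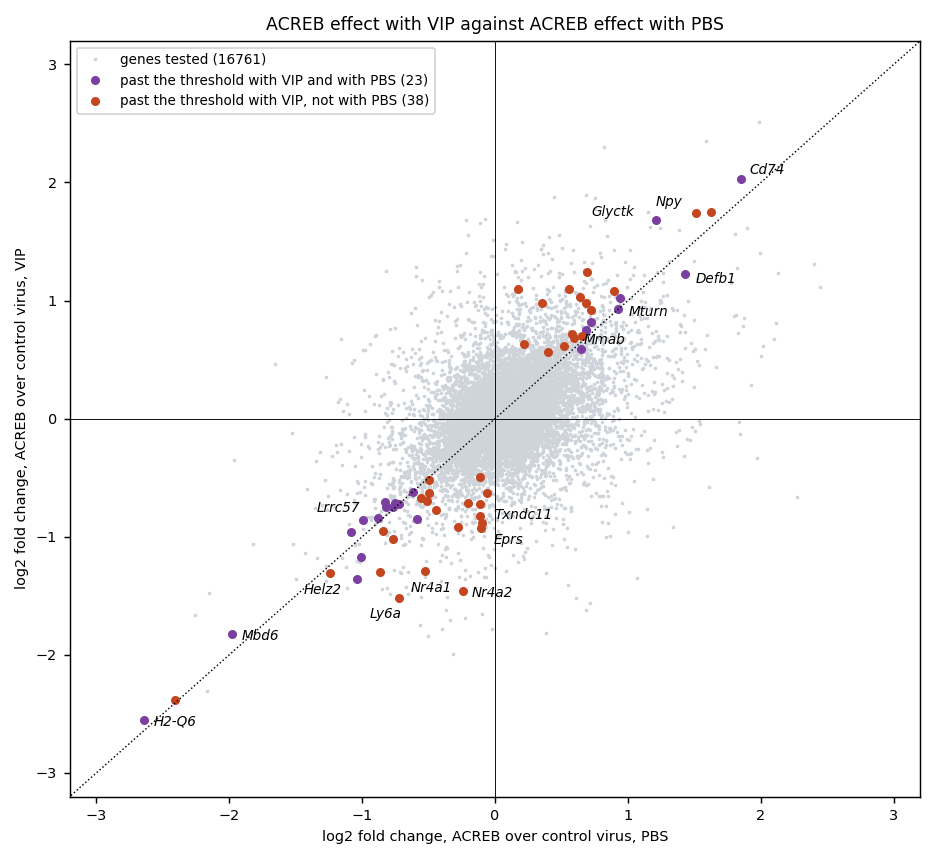
Log2 fold change of ACREB over control virus with PBS (x axis) and with VIP (y axis) for the genes tested, with the 61 VIP calls coloured by whether they also passed with PBS (23, purple) or not (38, red) and a dotted line of equal values. The 61 lie in the lower left and upper right quadrants, Nr4a2, Txndc11 and Eprs lie near 0 on the x axis, and 1 gene, Gzmb, lies outside the axes.

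Among the falls shared by both treatments, Mbd6, a methyl-CpG-binding domain gene that acts with a histone H2A deubiquitinase complex, had the lowest unadjusted p with PBS. Mbd6 (ENSMUSG00000025409, chromosome 10, 127281956 to 127289018) measured 128.0, 129.2 and 125.9 CPM with control virus and VIP, and 43.6, 28.2 and 36.7 CPM with ACREB and VIP. No ACREB library reached 44 CPM and no control library was below 125 CPM. The fall was 3.55-fold, at a log2 fold change of -1.83 (SE 0.21, Benjamini-Hochberg adjusted p = 0.0067, edgeR), and the value with PBS was -1.98 (adjusted p = 0.012).

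Lrrc57, a leucine-rich repeat gene that overlaps Haus2 on the opposite strand, measured 34.2, 33.9 and 33 CPM with control virus and VIP, and 20.4, 18.1 and 18.2 CPM with ACREB and VIP (log2 -0.84, adjusted p = 0.0067, edgeR). Fahd2a, a fumarylacetoacetate hydrolase domain gene on chromosome 2 (127436215 to 127444565), measured 16.1, 14.6 and 15.5 CPM against 6.79, 8.13 and 8.85 CPM (log2 -0.96, adjusted p = 0.022, edgeR). Coq2, the prenyltransferase of coenzyme Q synthesis, measured 42.9, 37.8 and 39.6 CPM against 24.3, 24.0 and 25.1 CPM (log2 -0.71, adjusted p = 0.027, edgeR). In each of these 3 genes the lowest control library was at least 1.5 times the highest ACREB library. With PBS their log2 fold changes were -0.88, -1.08 and -0.83.

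Nupl2, a nucleoporin gene, had log2 fold changes of -1.17 with VIP (adjusted p = 0.018, edgeR) and -1.01 with PBS. Nubpl, an assembly factor of mitochondrial complex I, had -1.02 (adjusted p = 0.022, edgeR) and -0.77, which did not pass with PBS (adjusted p = 0.064). Zhx2, a zinc finger and homeobox repressor, measured 135.1, 101.7 and 126.7 CPM with control virus and VIP and 71.1, 59.3 and 70.2 CPM with ACREB and VIP (log2 -0.85, adjusted p = 0.0067, edgeR). The Golgi channel gene Gpr89 (-0.72), the mitochondrial reductase gene Mecr (-0.71), the retrotransposon-derived gene Rtl6 (-0.75), the transcription-elongation and exosome cofactor gene Wdr61 (-0.63) and Ccdc149 (-0.75) fell in both treatments, as did Nupl2 and Zhx2. Gpr89 overlaps Gja5 and Pdzk1, and Wdr61 overlaps Dnaja4, on the opposite strand. Further falls with VIP were found in the forkhead gene Foxf1 (-1.30, overlapping Gm27530), Trmt61b (-1.31, overlapping Spdya), the extracellular superoxide dismutase gene Sod3 (-0.95), the RNA helicase gene Ddx19b (-0.77), Cbwd1 (-0.70), the ribosomal RNA processing gene Rrp1b (-0.67, overlapping Hsf2bp), Bloc1s5 (-0.63, overlapping Gm47400) and Glod4 (-0.52, overlapping Fam57a and Mrm3).

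The promoters of the called genes were searched for the element that CREB is known to bind, since ACREB acts on that binding. Windows from 250 bases before to 50 after the start of transcription were taken from RefSeq (GRCm38.p6). They were matched by gene symbol for 27 of the 36 lowered genes, 18 of the 25 raised genes and 11835 of the genes tested. The full cAMP response element TGACGTCA reads the same on both strands, and the short element TGACG, searched on both strands (CGTCA on the other), lies within it. The short element was present in at least 1 window of 23 of the 27 lowered genes (85.2%), of 5 of the 18 raised genes (27.8%) and of 3981 of the genes tested (33.6%). Counted over windows, it was in 69.4% of those of lowered genes, 25% of those of raised genes, 29.1% of those of genes tested and 20.8% of all 32851 in the RefSeq table. The full element was present for 4 lowered genes (14.8%; Fahd2a, Glod4, Nubpl and Nupl2), for 1 raised gene (5.56%; Mturn), for 3.47% of the genes tested and in 1.79% of all windows. The windows had a median GC content of 59.2% for lowered genes, 57.5% for raised genes and 60.3% for genes tested, with medians of 19.5, 13.5 and 19 CG pairs. The short element was present in 17 of 19 lowered genes with an unadjusted p under 0.05 with PBS (89.5%) and in 6 of the other 8 (75%). Among cAMP/CREB target genes it was present for 17 of 25 (68%). A match is a description of the sequence and not a measured binding site.

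The windows below are shown because they belong to 3 genes whose ACREB effect was near 0 or smaller in PBS (Nr4a2 -0.24, Nr4a1 -0.53 and Txndc11 -0.10 on the log2 scale), to 1 that fell in both treatments (Fahd2a) and to the raised gene with full elements (Mturn). Each is written 5′ to 3′ on the strand of its gene, and capitals mark matches to the full or the short element on either strand.
Nr4a2 (chr2:57123954-57124253, minus strand): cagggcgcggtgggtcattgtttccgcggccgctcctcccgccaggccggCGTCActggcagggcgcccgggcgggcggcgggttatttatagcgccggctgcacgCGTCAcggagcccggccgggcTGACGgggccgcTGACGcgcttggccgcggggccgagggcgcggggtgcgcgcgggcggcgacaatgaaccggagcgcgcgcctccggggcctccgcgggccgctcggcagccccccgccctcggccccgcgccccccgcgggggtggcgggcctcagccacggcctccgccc
Nr4a1 (chr15:101266596-101266895, plus strand): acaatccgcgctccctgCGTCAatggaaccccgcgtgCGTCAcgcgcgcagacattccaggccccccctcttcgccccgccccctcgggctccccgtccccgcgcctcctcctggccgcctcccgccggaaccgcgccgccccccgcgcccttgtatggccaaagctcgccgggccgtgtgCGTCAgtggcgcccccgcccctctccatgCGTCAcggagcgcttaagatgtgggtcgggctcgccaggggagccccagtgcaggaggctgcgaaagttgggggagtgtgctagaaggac
Txndc11 (chr16:11134483-11134782, minus strand): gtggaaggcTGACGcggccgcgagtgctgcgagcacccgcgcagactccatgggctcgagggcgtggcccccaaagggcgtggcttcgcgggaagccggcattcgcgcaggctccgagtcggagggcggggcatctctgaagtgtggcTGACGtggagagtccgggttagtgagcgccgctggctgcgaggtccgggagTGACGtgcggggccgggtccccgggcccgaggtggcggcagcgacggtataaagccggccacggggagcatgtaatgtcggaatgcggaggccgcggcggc
Fahd2a (chr2:127444516-127444815, minus strand): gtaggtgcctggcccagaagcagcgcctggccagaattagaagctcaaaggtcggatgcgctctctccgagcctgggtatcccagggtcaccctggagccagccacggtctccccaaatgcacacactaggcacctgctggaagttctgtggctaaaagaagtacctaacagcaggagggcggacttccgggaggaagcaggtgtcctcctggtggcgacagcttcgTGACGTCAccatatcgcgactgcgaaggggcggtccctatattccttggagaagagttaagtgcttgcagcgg
Mturn (chr6:54681374-54681673, plus strand): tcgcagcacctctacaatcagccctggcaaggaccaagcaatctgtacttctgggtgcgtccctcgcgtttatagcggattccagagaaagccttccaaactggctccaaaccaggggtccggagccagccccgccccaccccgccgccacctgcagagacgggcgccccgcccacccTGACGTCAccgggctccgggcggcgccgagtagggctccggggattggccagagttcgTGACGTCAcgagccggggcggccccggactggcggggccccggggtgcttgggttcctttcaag
The window of Nr4a2 holds 4 short elements, at 200, 144, 123 and 111 bases before the start. That of Nr4a1 holds 4, at 233, 213, 69 and 40 bases before the start, and the 1 shown of the 2 windows of Txndc11 holds 3, at 241, 102 and 51 bases. Fahd2a has 1 full element, 23 bases before the start. Mturn, whose level rose with ACREB, has 2 full elements, 72 and 14 bases before its start. Neither window of Mbd6 holds either element.

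**Figure D4:**
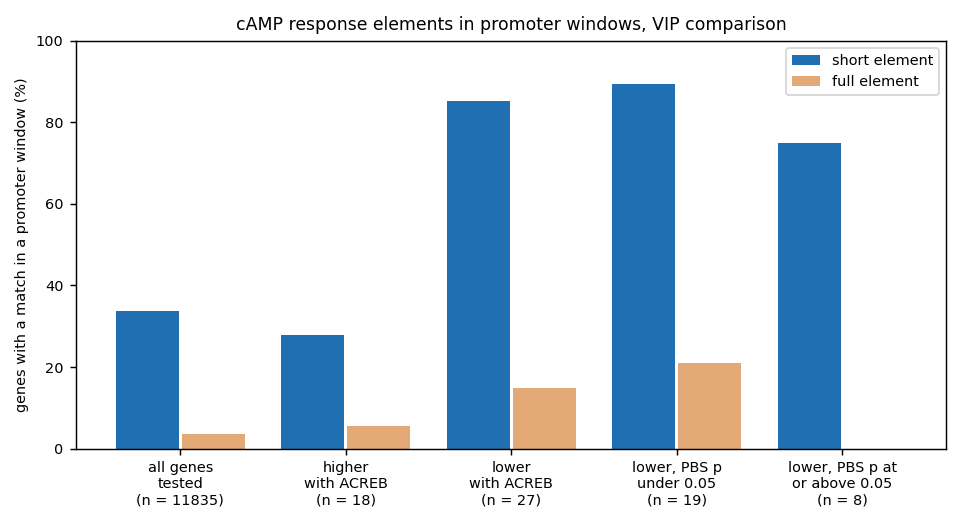
Percentage of genes with at least 1 match to the short (blue) or full (orange) cAMP response element in a RefSeq promoter window (y axis), for all genes tested, raised genes, lowered genes, and lowered genes split at an unadjusted p of 0.05 with PBS; n is the number of genes with a window. The short element is at 85.2% in lowered genes and 33.6% in genes tested.

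Most interferon-response and class I antigen-presentation genes had log2 fold changes below 0 with ACREB, and 3 listed members fell. Helz2, an interferon-inducible helicase and nuclear receptor coactivator, measured 25.1, 22.8 and 19.2 CPM with control virus and VIP, and 8.25, 9.05 and 8.79 CPM with ACREB and VIP. Its fall was 2.57-fold (log2 -1.36, SE 0.14, Benjamini-Hochberg adjusted p = 0.0055, edgeR), and the log2 value with PBS was -1.04 (adjusted p = 0.019). It was the 1 call among 30 interferon-response genes, of which 28 had a log2 fold change below 0. At an unadjusted p under 0.05, 17 were lower, against 4.87% of all genes tested. With no overlap between groups 15 were lower, against 7.06% of all genes tested. The median of the list was -0.43 with VIP and -0.24 with PBS. The antiviral gene Ifit1 measured 33, 33.1 and 21.4 CPM with control virus and 17.1, 20.2 and 10.7 CPM with ACREB, at a log2 value of -0.88 that did not pass (adjusted p = 0.065, edgeR). Isg15, a ubiquitin-like modifier (-0.70), and Irf7, a regulator of interferon genes (-0.83), did not pass either (adjusted p = 0.124 and 0.111, edgeR).

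Class I major histocompatibility genes present peptides on the cell surface, and their near-identical copies share reads, so single members are uncertain. Of 19 tested genes of class I and antigen processing, 2 fell (H2-Q6 and H2-D1) and 0 rose, against 0.215% lower among all genes tested. With PBS 5 fell, against 0.137% of all genes tested. The median log2 fold change was -0.43 with VIP and -0.41 with PBS. At an unadjusted p under 0.05 with VIP, 11 were lower and 0 higher, against 4.87% and 6.09% of all genes tested. With no overlap between groups 8 were lower and 0 higher, against 7.06% and 6.97%. H2-D1 measured 303.0, 488.2 and 592.6 CPM with control virus and VIP, and 199.2, 245.8 and 299.9 CPM with ACREB and VIP. All ACREB libraries were below all control libraries, by a log2 fold change of -0.86 (adjusted p = 0.0498, edgeR). H2-Q6 measured 3.58, 8.44 and 11.5 CPM against 1.24, 0.982 and 1.55 CPM (log2 -2.55, SE 0.42, adjusted p = 0.036, edgeR). H2-Q5, which is not on the list, had a log2 fold change of -2.38 (adjusted p = 0.0498, edgeR). H2-K1 (-0.84) and the light chain gene B2m (-0.48) lay just outside the threshold, at adjusted p of 0.050 and 0.052. Ly6a, an interferon-inducible surface protein gene, measured 2.61, 5.05 and 4.33 CPM with control virus and 1.35, 1.42 and 1.29 CPM with ACREB (log2 -1.52, adjusted p = 0.027, edgeR).

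**Figure D5:**
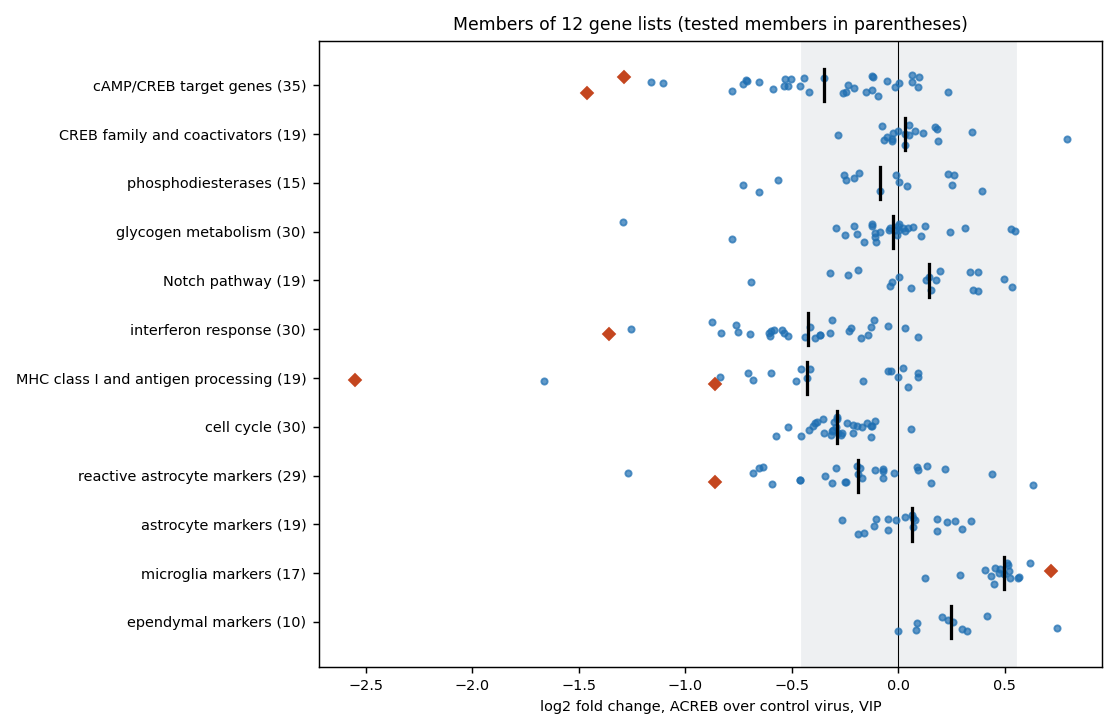
Log2 fold change of ACREB over control virus with VIP (x axis) for each tested member of 12 gene lists, with a black bar at the list's median, red diamonds for members past the threshold and a grey band from the 5th to the 95th percentile of all genes tested (-0.45 to 0.56). The medians of the cAMP/CREB, interferon and class I lists lie between -0.35 and -0.43, and that of microglia markers at 0.50.

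Among the rises, Cd74, the invariant chain that escorts class II molecules, had the largest change of the genes that met the naming rule. Cd74 measured 3.33, 2.80 and 4.70 CPM with control virus and VIP, and 12.5, 18.7 and 13.6 CPM with ACREB under VIP. The groups were well separated, with a 4.08-fold difference (log2 2.03, SE 0.26, Benjamini-Hochberg adjusted p = 0.015, edgeR) and a log2 value of 1.85 with PBS. Cells of the immune lineage are the usual source of Cd74, and microglia markers moved in the same direction. All 17 microglia markers had a log2 fold change above 0, with a median of 0.50 with VIP and 0.40 with PBS. At an unadjusted p under 0.05, 15 were higher, against 6.09% of all genes tested, and 1 passed (Ly86). For 0 of the 17 did the groups separate, where 6.97% of all genes tested were higher without overlap. The summed level of the markers was 1852, 1968 and 4086 CPM in control VIP libraries 1 to 3 and 2476, 3539 and 5008 CPM in ACREB VIP libraries 1 to 3 (exact two-sided permutation p = 0.4), with a higher value for ACREB in each number. More cells of a type and more RNA per cell cannot be told apart in such bulk samples. The defining markers Cx3cr1, P2ry12 and Tmem119 were present in every library, at log2 fold changes of 0.44, 0.47 and 0.29 that did not pass. The part of microglia in the rise of Cd74 and in the rises below was not tested.

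Ly86, which encodes a partner of a Toll-like receptor homologue, measured 57.5, 56.5 and 134.8 CPM with control virus and VIP, and 84.6, 116.9 and 199.7 CPM with ACREB and VIP (log2 0.72, adjusted p = 0.049, edgeR). The groups overlapped because library 3 was high in both, while each pair differed by 0.56 to 1.05. Cst7, the gene of the lysosomal inhibitor cystatin F, showed the same layout, with 8.13, 18.9 and 22.4 CPM against 15.7, 31.2 and 34.5 CPM (log2 0.75, adjusted p = 0.026, edgeR). Sucnr1, the succinate receptor gene, measured 3.43, 4.85 and 3.54 CPM against 8.98, 9.60 and 6.57 CPM, without overlap (log2 1.08, adjusted p = 0.048, edgeR). The cytotoxic protease gene Gzmb had 0 to 0.0512 CPM with control virus and VIP and 1.20 to 1.46 CPM with ACREB and VIP, and passed at an adjusted p of 0.022 by edgeR. It fell outside the naming rule, which asked for a mean of 2 CPM in the higher group.

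Further rises are given by gene. Glyctk, glycerate kinase, measured 3.48, 3.95 and 4.38 CPM with control virus and VIP, and 10.3, 16.4 and 11.7 CPM with ACREB and VIP. It had the smallest adjusted p of the comparison (log2 1.68, SE 0.15, adjusted p = 0.0036, edgeR), passed in both treatments, and overlaps D030055H07Rik and Mir135a-1 on the opposite strand. Npy, the neuropeptide Y precursor gene, measured 2.40, 1.40 and 0.686 CPM against 5.28, 6.22 and 3.10 CPM, a 3.33-fold rise at a low level (log2 1.74, adjusted p = 0.026, edgeR). It was the 1 call among 24 tested neuropeptide and trophic factor genes, whose median was -0.20. Mmab, an enzyme of vitamin B12 cofactor synthesis, measured 20.1, 25.5 and 24.1 CPM against 37.2, 45.4 and 40.0 CPM (log2 0.82, adjusted p = 0.0067, edgeR).

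Mturn, a regulator of neural progenitor differentiation on chromosome 6 (54681624 to 54703851) that overlaps Gm28402, measured 56.7, 41.7 and 47.5 CPM with control virus and VIP, and 86.6, 95.2 and 94.5 CPM with ACREB and VIP. Its log2 fold change was 0.93 in both treatments (adjusted p = 0.018 with VIP, edgeR). Defb1, a defensin, measured 4.30, 3.75 and 2.06 CPM against 7.75, 11.3 and 4.71 CPM (log2 1.23, adjusted p = 0.026, edgeR). Galnt15, a mucin-type glycosyltransferase, measured 11.9, 9.34 and 12.1 CPM against 24.0, 19.0 and 24.8 CPM (log2 1.02, adjusted p = 0.019, edgeR). Its 3 pairs differed by 1.00, 1.01 and 1.03 and were the most even of these rises. The matrix gene Papln (1.03), the sulfotransferase gene Sult4a1 (0.98), the PILR-associated protein gene Pianp (0.98), the fibrillin gene Fbn1 (0.59, overlapping Gm9913), the ubiquitin ligase gene Hectd4 (0.57), the histone gene Hist1h2ac (0.62, overlapping Gm44350) and Gprin2 (0.63) rose as well. The raised transcript AC126937.2 (1.10) overlaps Scube3 and Zfp523. Also higher were the non-coding transcripts Gm11642 (1.75), 2900093K20Rik (1.24), D730003I15Rik (1.10), Gm13293 (0.92) and AC165962.1 (0.68, overlapping Btbd9).

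In the coenzyme Q synthesis list 1 gene rose and 1 fell. Coq2 fell, as above, and Coq7, the hydroxylase of a late step, measured 21.9, 29.6 and 25.8 CPM with control virus and VIP and 39.3, 48.0 and 37.9 CPM with ACREB and VIP (log2 0.70, adjusted p = 0.046, edgeR). The list of 13 had a median of -0.10, and 12 members lay below 0.

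The CREB gene itself and its partners showed no call. Creb1 (chromosome 1, 64532645 to 64604548) measured 63.5, 55.0 and 45.3 CPM with control virus and VIP and 117.4, 89.0 and 80.6 CPM with ACREB and VIP, with no overlap, at a log2 fold change of 0.79 that did not pass (adjusted p = 0.233, edgeR). It passed in 4 alternatives, among them the fit without control PBS library 2 (0.80, adjusted p = 0.015). Reads from the ACREB insert and from Creb1 are not separated in counts per gene, so the labels are not checked by this value. Of 19 CREB family and coactivator genes 0 rose and 0 fell, with a median of 0.03. Crem (-0.05), Atf1 (0.08), Crtc1 (-0.07) and Crtc2 (-0.02) had adjusted p of 0.920 to 0.979 by edgeR. With PBS the log2 values were 0.76 for Crem, 0.30 for Atf1, -0.22 for Crtc1, -0.17 for Crtc2 and 0.91 for Creb1. None passed with PBS, but the Crem libraries did not overlap there (adjusted p = 0.131, edgeR). Of 27 receptor and cAMP signalling genes 0 rose and 0 fell (median 0.06), and the receptor genes Adcyap1r1 (-0.06) and Vipr2 (-0.11) had overlapping libraries.

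Glycogen genes, the subject of the study, had no call. Of 30 tested genes 0 rose and 0 fell, with a median of -0.02. Besides Ppp1r3c, its relatives Ppp1r3b (0.55) and Ppp1r3g (-1.29) had separated libraries and did not pass (adjusted p = 0.284 and 0.337, edgeR), and Ppp1r3g was at 0.310 to 1.33 CPM. Gys1, the glycogen synthase gene, measured 45.7, 48.4 and 45.3 CPM with control virus and 45.8, 43.0 and 40.2 CPM with ACREB (log2 -0.11), and it overlaps Ruvbl2 on the opposite strand. The branching enzyme gene Gbe1 had a log2 value of 0.10 and the phosphorylase gene Pygb of -0.19 (adjusted p = 0.917 and 0.520, edgeR). Of 28 glucose and lactate genes 0 rose and 0 fell (median 0.02), and Pfkfb3, which makes an activator of glycolysis, lay nearest the threshold at 0.42 (adjusted p = 0.063, edgeR).

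Early transcription factors outside the NR4A family had no call among 26 tested (median 0.11). Fos measured 55.4, 31.0 and 36.6 CPM with control virus and 41.2, 45.4 and 45.4 CPM with ACREB (log2 0.10), and its 3 pairs did not share a sign. Maff (-0.65), Klf4 (-0.45) and Fosl2 (-0.40) had separated libraries and adjusted p of 0.077, 0.148 and 0.145 by edgeR. The list as a whole was mixed, with 17 members above 0 and 9 below. At an unadjusted p under 0.05, 4 were higher and 3 lower, against 6.09% and 4.87% of all genes tested. Without overlap 2 were higher and 3 lower, against 6.97% and 7.06%. Of 15 phosphodiesterases 0 rose and 0 fell, with medians of -0.09 with VIP and 0.12 with PBS.

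Cell-cycle genes had small log2 values, nearly all of 1 sign. Of 30 tested genes 0 rose and 0 fell, but 29 lay below 0, and the median was -0.29 with VIP and -0.24 with PBS. At an unadjusted p under 0.05, 13 were lower, against 4.87% of all genes tested. Without overlap 18 were lower, against 7.06% of all genes tested. Kif20a, a mitotic kinesin gene that overlaps Cdc23, measured 52.4, 51.0 and 54.9 CPM with control virus and 44.6, 38.2 and 45.7 CPM with ACREB (log2 -0.31, adjusted p = 0.165, edgeR). Markers of reactive astrocytes had 1 call (H2-D1, shared with the class I list) among 29 and a median of -0.19, and their summed level was 9117 to 10158 CPM with control virus and 8176 to 8894 CPM with ACREB (exact two-sided permutation p = 0.1, the smallest that 3 against 3 allow). The astrocyte markers themselves had a median of 0.06 and no call.

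The called genes were spread over the chromosomes with a few neighbours. Chromosome 2 held 9 of the 61 calls (14.8%, against 7.53% of genes tested) and chromosome 17 held 7 (11.5%, against 4.87%). H2-D1, H2-Q5 and H2-Q6 lie within 0.167 Mb on chromosome 17, where 5 genes were tested. Sod3 and Ccdc149, the 2 genes tested within 0.108 Mb of chromosome 5, both fell. Sult4a1 and Rtl6, within 0.482 Mb of chromosome 15, moved in opposite directions.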

How the data were processed

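PolyA RNA of the 12 libraries had been sequenced as strand-specific paired-end reads. Values are the raw read counts that the authors deposited, unnormalized, in a table of Ensembl genes by libraries. Per the submitters' processing notes reads were handled with HTSeq 0.11.2, STAR 2.7.1a and Trimmomatic 0.39, and with edgeR under R 3.6.1, on GRCm38 (mm10). Not given in the sources used here are the annotation release and whether the counter used strand. The library totals were 16571398 to 20529238 per library. Symbols and positions came from GENCODE M21 of GRCm38 and matched 55480 identifiers, with 93 unmatched. Rows that name no gene numbered 0.

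The present fits used edgeR 4.0.16 under R 4.3.3. After filterByExpr, 16761 genes remained. All 12 libraries, scaled by TMM, entered a single quasi-likelihood model of group means with a block for the replicate number (common dispersion 0.0182, with 6 residual degrees of freedom). Benjamini-Hochberg adjustment covered every gene tested, with a threshold of 0.05. The printed SE was obtained from the F statistic, as the absolute log2 fold change over its root, and the model gives no SE of its own. Within-pair differences are log2 CPM with a prior count of 2. The fit was run on simulated counts with 200 genes changed in the ACREB VIP group. It recovered 91% of 2-fold and 100% of 4-fold changes, and 5.4% of its calls were false. The simulated counts held no effect of the replicate number and no outlying library. The run therefore says nothing on how the calls depend on the block or on single libraries.

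The block was used because the numbers pair the samples. Deviations from group means correlated across genes in all 18 same-numbered pairs (0.132 to 0.679, and 0.305 to 0.480 in the 3 VIP pairs), and each of the 12 libraries had its closest match among those sharing its number.

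Genes were named by rule: the 12 genes in each direction with the greatest log2 change among those that passed with separate libraries, 3 pairs in 1 direction and a mean of at least 2 CPM in the higher group (no predicted or RIKEN symbols), up to 4 called members of each list, up to 10 genes called in both treatments, and a set of CREB, NR4A and glycogen genes. Other called genes, and uncalled list members given as examples, were chosen after their values were seen. Members and the 29 gene lists were chosen with earlier results of these data known, and 3 of the lists, taken from those results, are not used as support. Alternatives were no block, the 6 VIP libraries alone, RLE and upper-quartile scaling, DESeq2 1.42.0, limma-voom (limma 3.58.1), no filter or a stricter one (1 CPM in 3 libraries), offsets for GC content and length, and leaving out each library. Leaving out both PBS libraries numbered 2 was added after seeing the data. Some results are not reported here.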

Additional observations from a re-analysis of the deposited data

How the results depend on the processing

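The direction of the 32 named calls was the same in all 23 alternatives. Of these calls, 1 (Glyctk) passed in each fit that left out 1 library, while 2, 1 and 1 remained without ACREB VIP library 1, 2 and 3, and 10, 10 and 5 without control VIP library 1, 2 and 3. With the replicate block removed 8 of the 32 remained, and with RLE scaling, the stricter filter and limma-voom 25, 30 and 31. The numbers of calls moved much more than the fold changes, and the cause was not tested. In the VIP comparison the numbers of rises and falls were 3 and 6 with no replicate block, 826 and 937 with the 6 VIP libraries and the block, and 4 and 8 with those 6 and no block. They were 148 and 179 with DESeq2, 80 and 127 with no filter, 226 and 370 with GC and length offsets, and 433 and 546 without both PBS libraries numbered 2. Leaving out 1 library gave 1 to 243 rises and 0 to 313 falls, with the highest values without control PBS library 2. In the PBS comparison the numbers were 1 and 5 with no replicate block and 0 and 0 with its 6 libraries and no block, where the block gave 11 and 14. They were 110 and 148 with DESeq2, 76 and 79 with no filter, 129 and 193 with GC and length offsets, and 33 and 44 without both PBS libraries numbered 2. Leaving out 1 library gave 0 to 24 rises and 0 to 35 falls there. The interaction had 0 calls in every alternative. RLE and upper-quartile scaling moved the median of all genes by no more than 0.012 on the log2 scale. Uncalled genes with values near 0 that changed sign in an alternative, such as Fos and Crem, were not counted as reversed. The medians of the interferon (-0.54 to -0.37), class I (-0.47 to -0.32), cAMP/CREB (-0.38 to -0.27), cell-cycle (-0.29 to -0.24) and microglia (0.33 to 0.63) lists kept their sign in the 23 alternatives. Few reads stand behind genes near or below 2 CPM, such as Npy in control libraries, H2-Q5 and Gzmb, and depth limits their precision.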

Other observations

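Several further groups had values in the VIP comparison. Of 19 Notch pathway genes 0 rose and 0 fell, with a median log2 fold change of 0.14 with VIP and -0.09 with PBS. The receptor gene Notch2 measured 168.2, 187.4 and 176.7 CPM with control virus and 230.4, 241.4 and 217.5 CPM with ACREB, with no overlap (log2 0.37, Benjamini-Hochberg adjusted p = 0.098, edgeR). Lfng, the glycosyltransferase that modifies Notch receptors, measured 73.1, 81.5 and 112.2 CPM against 107.4, 127.4 and 140.1 CPM, which overlap (log2 0.50, adjusted p = 0.132, edgeR). Among 21 circadian clock genes, 0 rose and 0 fell (median -0.05), and the activator gene Arntl had the lowest p of the list, at 0.51 (adjusted p = 0.077, edgeR), although it overlaps Gm45355.

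Of 23 sterol synthesis genes 0 rose and 0 fell, with medians of -0.10 with VIP and -0.11 with PBS. Cyp51, the lanosterol demethylase gene, measured 184.6, 212.2 and 197.8 CPM with control virus and 140.9, 156.3 and 145.2 CPM with ACREB (log2 -0.43, adjusted p = 0.121, edgeR), and overlaps Akap9. All 10 ependymal markers lay above 0 (median 0.25 with VIP and 0.38 with PBS), and 0 passed. The cilium gene Rsph1 among them measured 28.6, 21.7 and 28 CPM with control virus and 39.5, 30.0 and 35.0 CPM with ACREB (log2 0.42, adjusted p = 0.078, edgeR). Ptgs2, which makes prostaglandins, measured 18.8, 17.3 and 7.13 CPM with control virus and VIP and 8.37, 4.80 and 4.55 CPM with ACREB and VIP (log2 -1.27 with VIP and -0.07 with PBS, adjusted p = 0.065 with VIP, edgeR). Its groups overlapped through control library 3. The neuron marker Gad1, an enzyme of GABA synthesis, measured 13.1, 9.99 and 8.61 CPM against 7.36, 5.34 and 4.97 CPM, with log2 values of -0.84 with VIP and 0.46 with PBS that did not pass (adjusted p = 0.146 and 0.535, edgeR). It had the lowest VIP value of 14 tested neuron markers, whose median was -0.13. At an unadjusted p under 0.05, 2 of the 14 were higher and 3 lower, against 6.09% and 4.87% of all genes tested. The mean summed level of these markers was 519.9 CPM with control virus and 518.9 CPM with ACREB.

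The median log2 fold change over genes of low, middle and high GC content (equal classes) was -0.05, 0.01 and 0.03 with VIP and 0.12, 0.01 and -0.09 with PBS.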
